A study of Mus musculus with 4 samples.

Results

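The genes described here are 9 core transcription factors of the B lineage, taken by symbol from a list: Ebf1, Pax5, Foxo1, Myb and Bach2, which act in specification of and commitment to the B lineage, and Irf4, Irf8, Ikzf1 and Ikzf3, which act in the differentiation of pre-B cells. All 9 were found among the 23284 gene symbols measured. Pre-B cells are the marrow precursors that have assembled an immunoglobulin heavy chain and go on to rearrange a light chain. They came from C57BL/6J mice in 4 RNA-seq libraries, 1 for each of 4 groups: wild-type marrow at steady state, marrow carrying a STAP-2 transgene at steady state, wild-type marrow 1 month after transplantation, and marrow labelled STAP-2 knockout 1 month after transplantation. STAP-2 (gene symbol Stap2) is a signal-transducing adaptor protein that binds, among other partners, STAT transcription factors, and the study asked which pathways it controls in B lymphopoiesis under haematological stress. The promoter of the transgene, the number and age of the mice behind a library, whether mice were pooled, the hosts of the transplants and the gates of the cell sort: all were not given in the sources used here.

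EBF1 opens the B lineage programme in lymphoid progenitors and switches on PAX5, which fixes commitment by activating B cell genes and silencing those of other lineages. FOXO1 drives the recombinase genes and the IL-7 receptor gene, MYB sustains progenitors and their IL-7 receptor, and BACH2 restrains myeloid genes and acts at the pre-B cell checkpoint. After the pre-B cell receptor signals, IRF4 and IRF8 act partly in each other's place to end the large pre-B stage, and the zinc finger proteins IKAROS (Ikzf1) and AIOLOS (Ikzf3) shut off the surrogate light chain genes and cell division. IKAROS also acts earlier, in lymphoid specification, so its place among the differentiation factors is a choice.

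The values are FPKM, fragment counts scaled to transcript length and library depth. The 1-read steps that low genes show put the depth at about 7340000 reads for wild type and 7280000 for transgenic cells at steady state, and after transplantation 7760000 for wild type and 8700000 for the library labelled knockout. Each group has 1 library, so that no difference could be checked against replicates. Ratios carry 95% Clopper-Pearson intervals, which cover counting error only and not the spread between mice. Stap2 itself had about 2 reads (0.212 FPKM) in steady-state wild type, 5 reads (0.536) in transgenic cells and 2 reads (0.179) in the library labelled knockout. Transplanted wild type had none, where a floor of 3 reads equals 0.297 FPKM. Its level checks neither label, so the directions below hold for libraries as labelled. The B lineage marker Cd79a, the gene of a B cell receptor signalling chain, was high throughout, between 1624 and 1952 FPKM.

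All 9 factors were strongly expressed in every library. Myb was the highest, with 674.9 FPKM in steady-state wild type, 544 in the transgenic library, 452 in transplanted wild type and 538 in the one labelled knockout. Pax5 came next, at 334, 287, 328 and 317 FPKM in the same order, and the ranges of these 2 genes did not overlap each other or those of the other 7. Then followed Ikzf3, Ikzf1, Irf4, Bach2 and Ebf1, whose ranges overlapped from one to the next. Irf8 overlapped Ebf1 alone, and Foxo1 was lowest of the 9, at 111, 78.2, 99.0 and 78.1 FPKM. In steady-state wild type 97.0% of all gene symbols lay below Foxo1 and 99.5% below Myb. The values rested on about 1352 reads for Irf8 in the transgenic library, the fewest, to 15712 for Myb in steady-state wild type. The order depends on the transcript lengths behind the FPKM, which are uncertain for genes with many forms: Pax5 (chromosome 4, 44524757 to 44710487, minus strand, GRCm38) has 14 annotated coding transcripts of 324 to 8004 nt. All but Irf4 overlap other annotated genes, such as the antisense Gm12158 in Ebf1, and whether the counting used strand is not stated, so reads of such partners cannot be told apart.

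**Figure D1:**
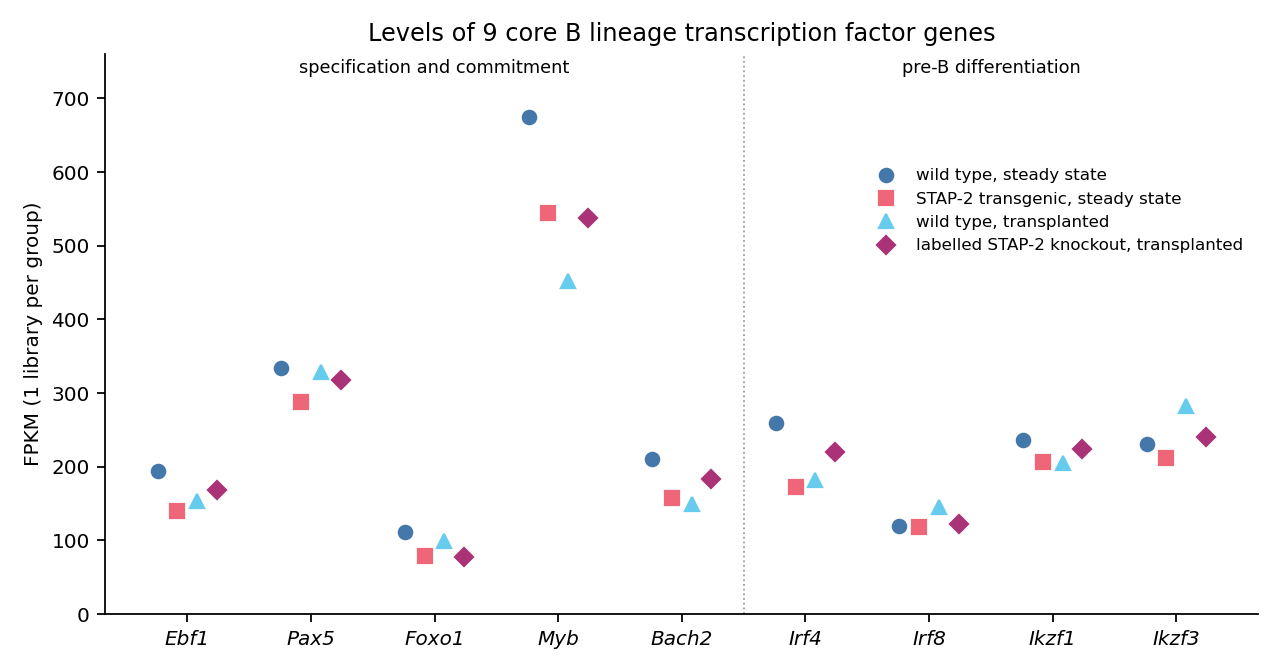
FPKM (linear axis from 0) of the 9 genes in each of the 4 libraries, 1 point per library, with specification and commitment factors left of the dotted line and pre-B differentiation factors right of it. Steady-state wild type is the highest library for Ebf1, Pax5, Foxo1, Myb, Bach2, Irf4 and Ikzf1, and transplanted wild type for Irf8 and Ikzf3.

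The spread across the 4 libraries was modest. The highest library exceeded the lowest 1.50-fold for Irf4, 1.49-fold for Myb, 1.42-fold for Foxo1, 1.40-fold for Bach2 and 1.39-fold for Ebf1. Ikzf3 varied 1.34-fold and Irf8 1.22-fold, and Pax5 and Ikzf1, at 1.16-fold each, varied least. Steady-state wild type was the highest library for 7 of the 9. For Irf8 and Ikzf3 the highest was transplanted wild type.

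Promoters of 4 of the factors are printed here: those of Irf8 and Bach2, which hold letters bound by STAT proteins, the partners of STAP-2, and those of Ebf1 and Foxo1, each with letters bound by another of the 9 factors or its family, as examples. The sequences are RefSeq promoters on GRCm38.p6, cut to the 250 bases before the annotated start, on the gene's strand. Annotations differ on some starts. The windows of Bach2 and Ebf1 lie inside the gene models used elsewhere here, which begin at 32238804 on chromosome 4 and 44617317 on chromosome 11. Entries matched 8 of the 9 factors, with 11 start sites, and none matched Ikzf3. Capitals mark TTCNNNGAA, the letters of the STAT-bound GAS element, in Irf8 (chr8:120736108-120736357, plus strand) and Bach2 (chr4:32417185-32417434, plus strand). They mark an IRF-bound pair of GAAA copies, 2 bases apart and searched on both strands, in the upstream start of Ebf1 (chr11:44617850-44618099, plus strand), and CCCNNGGG, the core of the EBF1 site, in Foxo1 (chr3:52268087-52268336, plus strand).
Irf8: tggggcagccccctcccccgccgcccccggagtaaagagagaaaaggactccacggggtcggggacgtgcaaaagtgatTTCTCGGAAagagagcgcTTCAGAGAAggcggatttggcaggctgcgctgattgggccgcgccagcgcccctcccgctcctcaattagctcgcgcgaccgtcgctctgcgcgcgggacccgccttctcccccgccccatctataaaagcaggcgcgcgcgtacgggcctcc
Bach2: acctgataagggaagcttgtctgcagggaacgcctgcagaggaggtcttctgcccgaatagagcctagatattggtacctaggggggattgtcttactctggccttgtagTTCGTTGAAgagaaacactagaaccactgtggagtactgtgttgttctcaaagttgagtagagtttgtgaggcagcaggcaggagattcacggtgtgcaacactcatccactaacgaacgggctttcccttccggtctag
Ebf1: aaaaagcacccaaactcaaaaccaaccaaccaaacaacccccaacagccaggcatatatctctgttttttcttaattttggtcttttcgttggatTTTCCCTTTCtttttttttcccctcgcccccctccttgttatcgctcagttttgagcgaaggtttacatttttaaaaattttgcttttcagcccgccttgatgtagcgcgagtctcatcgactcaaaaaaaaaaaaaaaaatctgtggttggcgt
Foxo1: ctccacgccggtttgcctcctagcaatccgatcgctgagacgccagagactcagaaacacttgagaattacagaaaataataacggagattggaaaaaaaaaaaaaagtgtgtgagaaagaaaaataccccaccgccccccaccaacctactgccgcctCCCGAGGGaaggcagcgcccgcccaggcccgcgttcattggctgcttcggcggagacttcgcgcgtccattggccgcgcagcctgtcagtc

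Both strands were searched in 32817 promoter windows of the same length. TTCNNNGAA was found in 7.01% of them, and among the factors in the upstream start of Irf8, with matches beginning 171 and 153 bases before the start, and in Bach2, 140 bases before it. The GAAA pair was found in 2.97% of all windows, and CCCNNGGG in 11.8% and also in 1 of the 2 start sites of Ikzf1. The IKAROS letters TGGGAA (21.6% of windows) occurred in the downstream start sites of Ebf1 and Irf8, and neither TGTTTAC, a FOXO site (3.16%), nor ATGCAAAT, the octamer (1.6%), occurred in any window of the 8 factors. The E-box CANNTG (66.2%) was in 4 of the 11 windows, and CAACNG, a MYB site (29.3%), in 2, the upstream start of Ebf1 and the downstream start of Ikzf1. Capitals were not used for E-boxes and MYB letters, so the E-box of Foxo1 and the MYB letters of Ebf1 are in lower case. None of the letters searched occurred in the windows of Irf4 and Myb. A match describes the letters only and is not a binding site, and no match says only that the letters are not in this window.

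The comparison of transgenic with wild-type cells at steady state asks what added STAP-2 changes in unstressed marrow. All 9 factors were lower in the transgenic library, although Irf8 only within its counting interval, beside 53.3% of the 10843 genes that reached 1 FPKM in one of the libraries or both. Differences are called when a gene is at least 20% lower or 25% higher, steps of equal size on the log2(FPKM + 1) scale. By that rule 4 of the 9 were lower (Irf4, Foxo1, Ebf1 and Bach2), against 8.69% of those genes, and none was higher, against 11.2%. Of the 2022 genes that reached 50 FPKM, as all 9 did, 6.58% were called lower and 7.02% higher. Bach2 lay inside the threshold and Myb just outside it. Rescaling the libraries to the same sum, which moved the median of all genes from -0.02 to -0.13, gave 6 factors called lower, and turned the split over all genes from 942 lower and 1219 higher to 1867 and 769. Markers of neutrophils and mature B cells were higher in this library (12 of 12 and 10 of 11), with levels given further on. In bulk samples fewer cells of a type and less RNA per cell cannot be told apart.

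Irf4 had the largest difference of the 9. Wild type had 258.8 FPKM of it and transgenic cells 173, which is 1.50-fold lower (1.45 to 1.55). Foxo1 was at 111 and 78.2 FPKM, 1.42-fold lower (1.37 to 1.48). Ebf1 was at 194 and 139.8 FPKM, 1.39-fold lower (1.32 to 1.45). On GRCm38, Irf4 lies on chromosome 13 (30749226 to 30766976), Foxo1 on chromosome 3 (52268336 to 52353221) and Ebf1 on chromosome 11 (44617317 to 45008091), all on the plus strand. These are the interferon regulatory factor gene that promotes light chain rearrangement, the gene of the activator of the recombinase, and the gene of the pioneer factor of the lineage. Bach2 was at 210.3 and 157 FPKM, 1.34-fold lower (1.30 to 1.37). Myb was at 674.9 and 544 FPKM, 1.24-fold lower (1.21 to 1.27). The counting intervals of all 5 lie clear of 1.

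The remaining factors differed less. Pax5 was at 334 and 287 FPKM (ratio 0.860, 0.807 to 0.918), and Ikzf1 at 236.7 and 206 (0.871, 0.813 to 0.933). Ikzf3 was at 231 and 211 FPKM, a ratio of 0.912 (0.879 to 0.947). Irf8 was level at 119.9 and 118.6 FPKM, with an interval of 0.917 to 1.07. The specification and commitment factors had a median difference of -0.41 and the pre-B differentiation factors one of -0.17 on the log2(FPKM + 1) scale, beside -0.02 for all genes. Within the second subgroup the members ranged from -0.58 for Irf4 to -0.02 for Irf8, so that the subgroups overlapped.

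**Figure D2:**
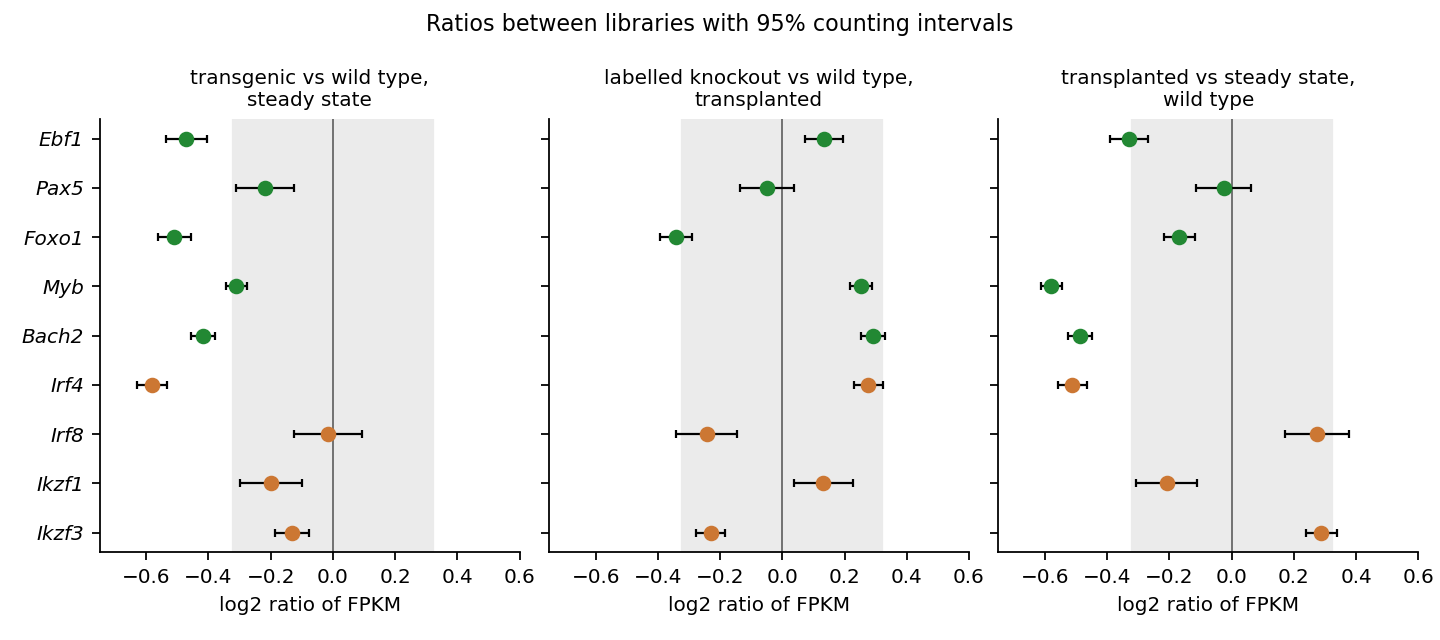
Log2 ratio of FPKM (horizontal axis) for each factor in the 3 comparisons, with specification and commitment factors in green, pre-B differentiation factors in orange and bars for the 95% counting interval. The grey band runs from 20% lower to 25% higher; 4 factors lie left of it for the transgenic library, Foxo1 alone for the library labelled knockout and 4 for transplanted wild type.

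What loss of STAP-2 changes in recovering marrow is the question of the second comparison, between the transplanted libraries. Here the 9 factors divided: Bach2, Irf4, Myb, Ebf1 and Ikzf1 were higher in the library labelled knockout, and Foxo1, Irf8, Ikzf3 and Pax5 were lower. Of 10790 genes 56.0% were lower. None of the factors was called higher (9.61% of genes were), and Foxo1 alone was called lower (12.4% were), which is close to the background. Of 2022 genes that reached 50 FPKM, 9.25% were called higher and 9.79% lower. Foxo1, just inside the threshold, left it when libraries were scaled by the median of gene ratios (-0.32), by the upper quartile (-0.31) or to the same sum (-0.24). The last scaling moved the median of all genes from -0.03 to 0.06, called 3 factors higher (Bach2, Irf4 and Myb), and turned the split over all genes from 1338 lower and 1037 higher to 891 and 1646. The neutrophil and mature B cell marker lists were also on the lower side there (12 of 12 and 11 of 11 genes).

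Bach2 was at 150.0 FPKM in transplanted wild type and 184 in the one labelled knockout, a ratio of 1.22 (1.19 to 1.26). Irf4 was at 181 and 219.8 FPKM, a ratio of 1.21 with a log2 interval of 0.23 to 0.32, and Myb at 452 and 538 (1.19, 1.16 to 1.22). Ebf1 was at 154 and 169 FPKM and Ikzf1 at 205 and 225, both with a ratio of 1.10. All 5 of these were lower in transplanted than in steady-state wild type, and the library labelled knockout lay between the 2 for each. Both contrasts rest on the same transplanted wild-type library, so they are not independent of each other. In the opposite direction, Foxo1 was at 99.0 and 78.1 FPKM, 1.27-fold lower (1.22 to 1.31). Irf8 was at 144.8 and 122 FPKM (0.845, 0.790 to 0.904) and Ikzf3 at 283 and 241 (0.853, 0.826 to 0.881). Pax5, the commitment factor, was level at 328 and 317 FPKM (0.967, 0.911 to 1.03).

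The medians were 0.13 for the specification and commitment factors and -0.05 for the pre-B differentiation factors (0.055 with the libraries rescaled to the same sum), beside -0.03 for all genes. Both subgroups held members on either side of 0. The division therefore ran across the subgroups, with Irf4 moving like Bach2, Myb and Ebf1, and Foxo1 like Irf8 and Ikzf3.

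The comparison of transplanted with steady-state wild type addresses the setting itself, but the code in the sample titles also differs between these libraries, so the 2 cannot be told apart. It shares a library with each genotype comparison, and its values are given beside theirs without counting as further support. In transplanted wild type 7 of 9 factors were lower, beside 54.1% of 10835 genes. Of the 9, 4 were called lower, against 8.81% of those genes and 7.7% of the 2051 that reached 50 FPKM, and none was called higher, against 12.2% and 10.6%. Rescaled to the same sum, the factors' counts were again 4 and 0, and the split over all genes went from 955 lower and 1326 higher to 1769 and 982. Myb was 1.49-fold lower (1.46 to 1.53), Irf4 1.43-fold (1.38 to 1.47), Bach2 1.40-fold (1.37 to 1.44) and Ebf1 1.26-fold (1.20 to 1.31). Ebf1 lies just inside the threshold and left it, at -0.31, with the libraries scaled by the median of gene ratios, which leaves 3 factors called lower. Irf8 and Ikzf3 were higher, with ratios of 1.21 (1.13 to 1.30) and 1.22 (1.18 to 1.26). Ikzf1 had a ratio of 0.866 (0.809 to 0.927) and Foxo1 one of 0.890 (0.860 to 0.921), and Pax5 was level at 0.982 (0.924 to 1.04). The specification and commitment factors had a median of -0.33, with all 5 lower, and the pre-B differentiation factors one of 0.03 (-0.072 rescaled to the same sum), with 2 of 4 lower.

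**Figure D3:**
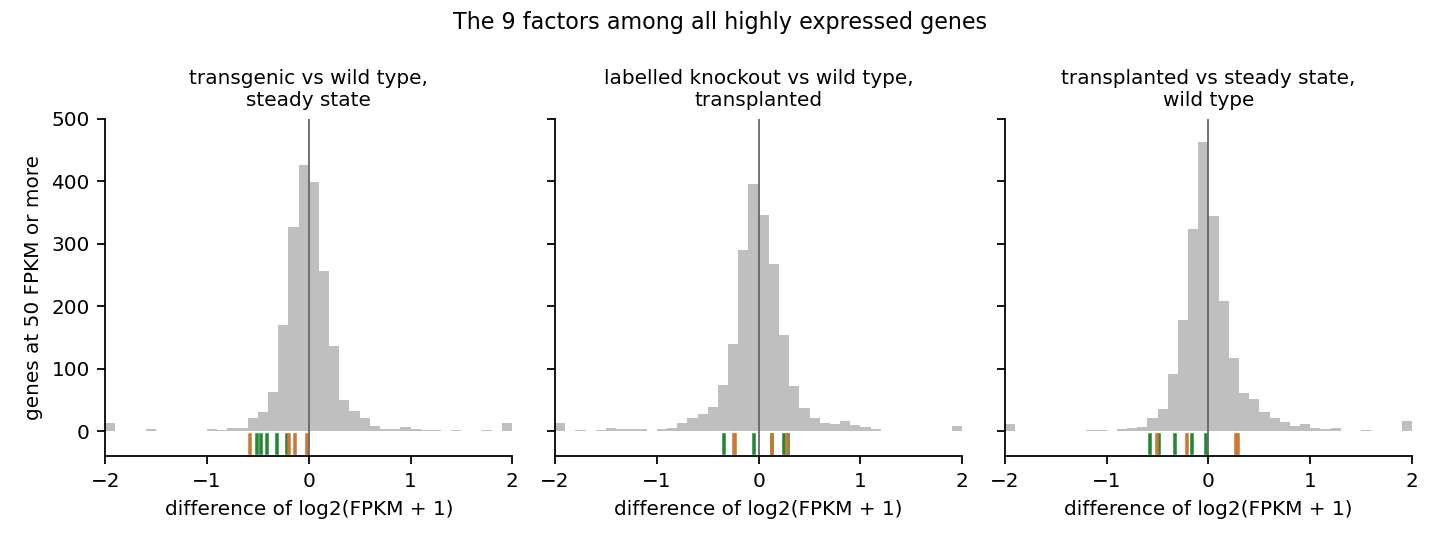
Number of genes that reached 50 FPKM (vertical axis) by their difference of log2(FPKM + 1) in bins of 0.1, for the 3 comparisons, with genes beyond 2 placed in the end bins. Ticks under the axis mark the 9 factors (green, specification and commitment; orange, pre-B differentiation): for the transgenic library they lie from -0.58 to -0.02, and for the library labelled knockout from -0.34 to 0.29.

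The 2 genotype comparisons share no library, so their directions can be set side by side. Of the 9 factors, 5 were lower in the transgenic library and higher in the library labelled knockout, a pattern shown by 20.4% of the 10580 genes that reached 1 FPKM in both comparisons and by 21.7% of the 1895 that reached 50 FPKM. The other 4 were lower in both, as were 33.3% and 30.1% of those genes. Bach2, Irf4, Myb, Ebf1 and Ikzf1 made up the first set, with differences of -0.41 and 0.29, -0.58 and 0.28, -0.31 and 0.25, -0.47 and 0.13, and -0.20 and 0.13 on the log2(FPKM + 1) scale. Foxo1 was at -0.50 and -0.34, the second of which did not pass the threshold under 3 of the scalings, as given above. For Irf8 in the first comparison and Pax5 in the second the intervals include no difference.

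Ratios between 2 factors within 1 library do not depend on how libraries are scaled. The ratio of Irf8 to Irf4, partners with overlapping functions, was 0.463 in steady-state wild type, 0.686 in the transgenic library, 0.798 in transplanted wild type and 0.557 in the one labelled knockout. It thus varied 1.72-fold, more than either gene alone. Ikzf3 to Irf4 followed the same order, at 0.894, 1.22, 1.56 and 1.10. Of the IKAROS family pair, Ikzf3 to Ikzf1 was near 1 in 3 libraries (0.978, 1.02 and 1.07) and 1.38 in transplanted wild type. Pax5 to Ebf1, the commitment factor over the specification factor, was 1.73 in steady-state wild type, 2.06 in the transgenic library, 2.13 in transplanted wild type and 1.88 in the one labelled knockout. Foxo1 to Ebf1 was lowest, at 0.462, in the library labelled knockout and 0.559 to 0.643 elsewhere. Of all pairs, Ikzf3 to Irf8 was the steadiest, at 1.93, 1.78, 1.95 and 1.97, followed by Bach2 to Irf4 at 0.813, 0.911, 0.827 and 0.835. The most variable was Myb to Ikzf3, which was 2.92 in steady-state wild type, 2.58 in the transgenic library, 1.6 in transplanted wild type and 2.23 in the one labelled knockout. The geometric mean of the 5 specification and commitment factors over that of the 4 pre-B differentiation factors was 1.24, 1.12, 1.02 and 1.08 in the same 4 libraries, highest in steady-state wild type.

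**Figure D4:**
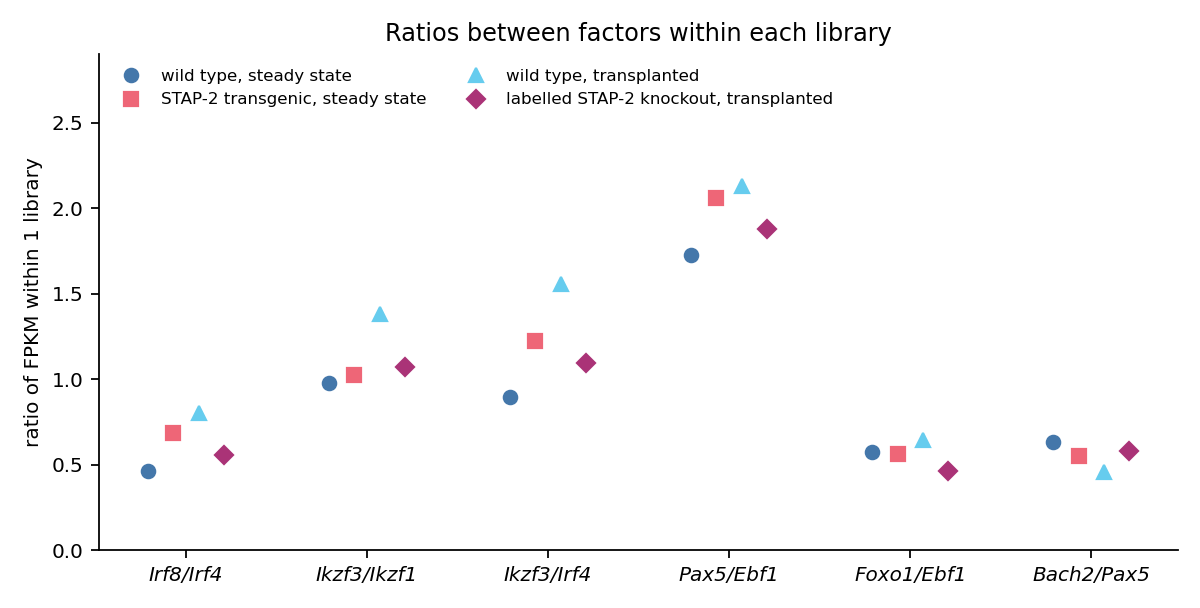
Ratio of FPKM (linear axis from 0) between pairs of factors within each library, 1 point per library. Irf8/Irf4 and Ikzf3/Irf4 are lowest in steady-state wild type and highest in transplanted wild type, and Foxo1/Ebf1 is lowest in the library labelled knockout.

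Markers of other cell types were summed in each library. The neutrophil marker list, with all 12 genes detected, summed to 772 FPKM in steady-state wild type, 1845 in the transgenic library, 1708 in transplanted wild type and 657 in the one labelled knockout. The 11 mature B cell markers found summed to 1869, 2466, 2947 and 1845 FPKM. Both sums were thus high in the transgenic and the transplanted wild-type libraries, the 2 in which Irf4, Ebf1, Bach2 and Ikzf1 were lowest. The other factors did not share this order. Pax5 and Foxo1 were lowest in the transgenic library and the one labelled knockout, and Myb in the 2 transplanted libraries. Irf8 and Ikzf3 were highest in transplanted wild type. Class II antigen presentation genes led the mature B cell list. H2-Aa was at 590, 834, 816 and 514 FPKM and H2-Ab1 at 409, 582, 605 and 391. Ms4a1, on the same list, was at 156, 171, 412 and 263 FPKM. In the transgenic library 5 of the 11 were called higher, with Ms4a1 (ratio 1.10) and Cd40 (1.07) not among them. Monocyte and macrophage markers, of cells in which Irf8 also acts, summed to 57.2, 91.8, 138.7 and 57.5 FPKM. All 9 plasma cell markers were measured, cells that express Irf4 strongly, and they summed to 728, 597, 385 and 336 FPKM. The plasma cell J chain gene Igj was the highest of that list in steady-state wild type, with 306 FPKM there, 204 in the transgenic library, 16.6 in transplanted wild type and 7.23 in the one labelled knockout. At steady state Irf4 and Igj were both lower in the transgenic library, 1.50-fold each. Between the transplanted libraries Irf4 was 1.21-fold higher where Igj was 2.30-fold lower. Mzb1 (2010001M09Rik in the data), a plasma cell chaperone gene that other B cells express too, made up most of the list's sum in the transplanted libraries and was at 258, 249, 247 and 206 FPKM in the 4 libraries. The part of these cells in the factors' differences was not tested.

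The 6 plasmacytoid dendritic cell markers, of cells in which Irf8 also acts, summed to 39.4, 60.9, 76.7 and 81.6 FPKM, lowest in steady-state wild type. Most of that was Bst2, an interferon-induced gene, at 27.1, 50.04, 62.2 and 67.2 FPKM, while Cox6a2 was at 9.15 to 11.7, Pacsin1 at 1.24 to 2.94, and Siglech, Ccr9 and Klk1 under 1 FPKM in every library. Under 1 FPKM throughout were also 7 of 8 conventional dendritic cell markers, the exception being Ccr7, a homing receptor gene that B cells express too. Stem and multipotent progenitor markers, of cells that also express Myb, summed to 2.69 to 5.98 FPKM, with Kit and Cd34 under 1 in every library. Of 12 T and NK cell markers 8 were under 1 FPKM throughout, among them Cd3e and Cd3d, while Cd2, which B cell precursors also express, was at 130 to 202. Erythroid markers summed to 37.4 FPKM in steady-state wild type, of which 32.6 was Hba-a1, and to 5.27 to 9.44 in the others.

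Relatives of the 9 factors from the same gene families were less widely expressed. Of 21 relatives, 12 reached 1 FPKM in each comparison, and the others stayed below it in every library, among them Ebf2, Ebf3, Ebf4, Pax2, Pax8, Foxo6, Ikzf2 and Ikzf4. In the transgenic library 4 of the 12 were called higher and none lower, at a median of -0.04, and in the library labelled knockout 2 and 1, at -0.02. Irf7 and Irf9, both mediators of the interferon response, stood at 10.1 and 46.8 FPKM in steady-state wild type and at 19.3 and 73.4 in the transgenic library, with ratios of 1.92 (1.53 to 2.42) and 1.57 (1.43 to 1.72). Neither Irf4 nor Irf8 shared that direction. In the transplanted libraries Irf7 was at 22.8 and 26.6 FPKM, both above steady-state wild type. Mybl2, the cell cycle relative of Myb, stood at 11.7 FPKM in steady-state wild type, 17.7 in the transgenic library, 10.6 in transplanted wild type and 20.2 in the one labelled knockout. Between the steady-state libraries Mybl2 was higher where Myb was lower, and between the transplanted ones both were higher in the library labelled knockout.

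Other transcription factors of the B lineage were also mostly lower in the transgenic library at steady state, with a smaller median difference. Of 20 such genes 18 were lower there, 4 of them past the threshold, beside 53.3% and 8.69% of all genes. Their median was -0.15, against -0.31 for the 9 factors. Sox4, which sustains B progenitors, was at 241 and 158 FPKM (1.53-fold lower, 1.47 to 1.58), and Bcl6, a repressor that protects pre-B cells, at 15.7 and 10.8 (1.46-fold lower, 1.24 to 1.71). In the library labelled knockout 11 of the 20 were lower, at a median of -0.06, with 1 past the threshold in each direction. These were Lef1, at 17.4 and 23.6 FPKM, and Bcl6, at 20.0 and 15.6. In transplanted against steady-state wild type 11 were lower and 4 were called higher, led by Bcl11a, at 26.9 and 37.8 FPKM.

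Genes downstream of the factors did not move as one. Of 15 genes activated by EBF1 or PAX5, 11 were lower in the transgenic library, 1 of them (Cd24a, a surface marker of immature B cells, at 1115 and 833 FPKM) past the threshold, and the median was -0.05. Cd79a, at 1833 and 1725 FPKM, was nearly level while Ebf1 itself was 1.39-fold lower. Vpreb1 and Igll1, surrogate light chain genes on the same list, were the 2 called higher, at ratios of 4.71 (3.15 to 7.23) and 2.73 (2.07 to 3.63). In the library labelled knockout the same list was divided, with 8 higher and 7 lower at a median of 0.02. Blnk, the gene of a pre-B cell receptor linker protein, was lower in the transgenic library, at 322 and 276 FPKM, and nearly level between the transplanted libraries, at 279 and 269.

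The list of genes activated by FOXO1 had medians below 0 in all 3 comparisons, as did all genes (-0.02, -0.03 and -0.02). In the transgenic library 9 of 15 were lower, 4 of them past the threshold, at a median of -0.16. Of all genes 53.3% and 8.69% were. For the library labelled knockout it was 10 of 15 and 4, at -0.13, beside 56.0% and 12.4%. The lowest median, -0.21, was that of transplanted against steady-state wild type, with 11 of 15 lower and 3 past the threshold. That stands beside 54.1% and 8.81% of all genes, in a comparison that shares a library with each of the others. Foxo1 itself had a ratio of 0.890 there. Klf2, a factor of lymphocyte quiescence and trafficking, was at 473 FPKM in steady-state wild type, 239 in the transgenic library, 436 in transplanted wild type and 188 in the one labelled knockout. It was low in the same 2 libraries as Foxo1, as was S1pr1, the receptor gene for egress into blood, at 72.8, 52.8, 77.5 and 43.7 FPKM. Rag1 was at 638, 429, 453 and 286 FPKM in that order, lower in each genotype comparison. Rag2, its partner in the recombinase, differed in the second: it was at 43.1, 39.6, 28.4 and 35.4 FPKM, higher in the library labelled knockout with an interval of 1.11 to 1.39 for the ratio. Il7r, another FOXO1 target and also a MYB target, was likewise higher there, at 176 and 256 FPKM.

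The targets of the differentiation factors were examined in the same way. Of 6 genes raised by IRF4 or IRF8, of which Ikzf1 and Ikzf3 are factors described here, 5 were lower in the transgenic library and 5 in the library labelled knockout, with 3 past the threshold in each and medians of -0.29 and -0.32. Cxcr4, the marrow retention receptor gene, stood at 1086 FPKM in steady-state wild type, 783 in the transgenic library, 826 in transplanted wild type and 617 in the one labelled knockout. Ciita, which drives class II antigen presentation genes, was at 31.0 and 20.7 FPKM in the transplanted libraries, 1.50-fold lower (1.36 to 1.65) in the library labelled knockout, and at 23.9 and 27.2 at steady state. Of 9 genes lowered by IKAROS or AIOLOS, 8 were higher in the transgenic library, at a median of 0.89. Past the threshold were 6 of them, against 11.2% of all genes. In the library labelled knockout 7 were higher, at 0.30, with 4 of these past the threshold, against 9.61%. Vpreb1 and Igll1 belong to this list too. Dntt, the terminal transferase gene, was at 2.12, 7.53, 12.1 and 15.1 FPKM in the 4 libraries, lowest in steady-state wild type and highest in the library labelled knockout. Myc, also on that list, went the other way in the transplanted libraries, at 38.0 FPKM in wild type against 17.2. Vpreb1, Igll1, Vpreb2 and Dntt are also markers of early B progenitors and pre-B cells. Of 9 such markers, 5 were higher in the transgenic library, 4 past the threshold, and 4 were lower, 2 past it. In the library labelled knockout 8 were higher, 3 past the threshold, and 1 was lower and past it. The part of cells at these stages in the differences was not tested.

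Of 9 genes that PAX5 silences, 5 reached 1 FPKM in the transgenic comparison, 2 of them higher and 3 lower, with a median of -0.06. Flt3, Cd28 and Ccl3 were under 1 FPKM in every library. In the library labelled knockout all 6 that reached 1 FPKM were lower, beside 56.0% of all genes, while Pax5 was level. Their median was -0.36, and 3 of them were past the threshold, against 12.4% of all genes. Itgal, an integrin gene, was at 22.3 and 12.2 FPKM there, and Notch1, the T lineage receptor gene, at 17.2 and 16.4. Csf1r had the largest difference, at 2.78 and 1.00 FPKM, and is also a monocyte and macrophage marker. All 9 such markers that reached 1 FPKM were called lower in that comparison. The part of those cells in the differences was not tested. Of the MYB targets, among them Ebf1, 5 of 6 reached 1 FPKM, and they were divided in both genotype comparisons, with 4 and 3 higher and medians of 0.20 and 0.13. Ccnb1, a mitotic cyclin gene, was higher in both, with ratios of 1.46 (1.26 to 1.70) and 2.06 (1.78 to 2.38), while Myb was lower in the first and higher in the second.

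**Figure D5:**
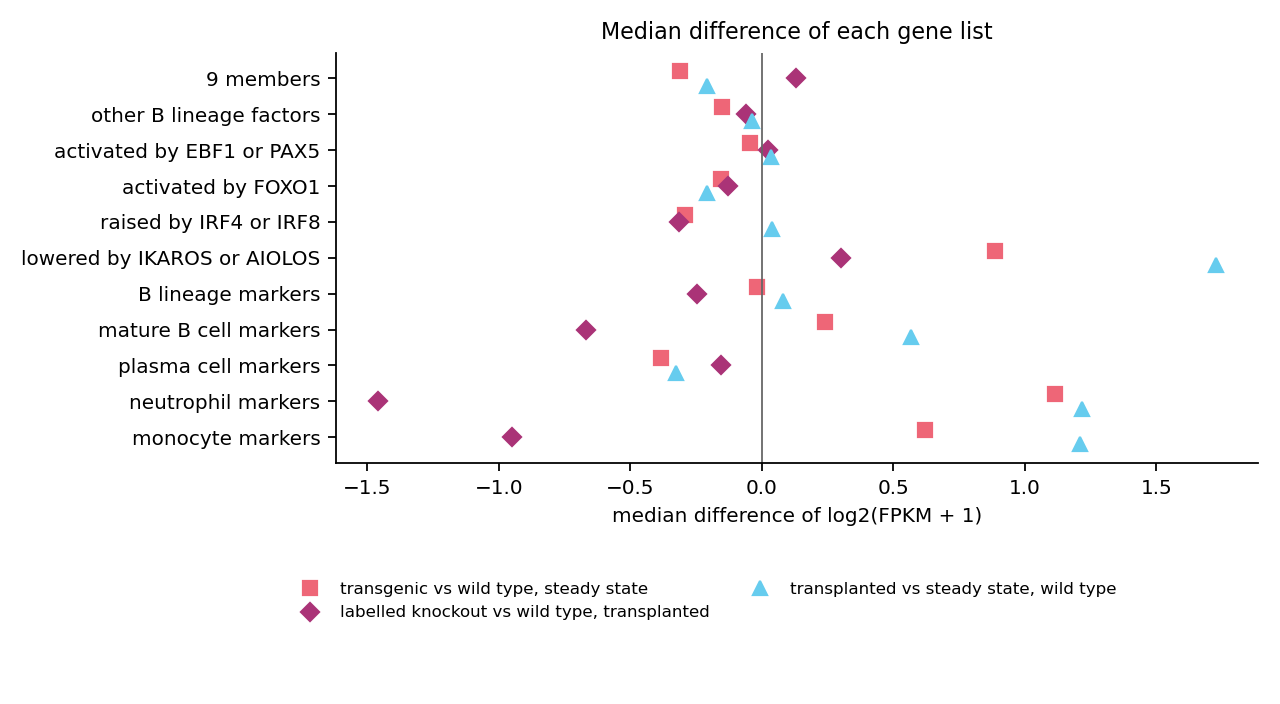
Median difference of log2(FPKM + 1) (horizontal axis) of the 9 factors and of 10 further gene lists in the 3 comparisons, over genes that reached 1 FPKM. The 9 factors are at -0.31, 0.13 and -0.21 for the transgenic library, the library labelled knockout and transplanted wild type, while the neutrophil markers are at 1.12, -1.46 and 1.22.

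The genes whose course over the 4 libraries was most like that of the factors were sought among 7449 genes at 5 FPKM or more throughout, by Euclidean distance between centred log2(FPKM + 1) values, which over 4 libraries is a description only. Closest to the mean of the specification and commitment factors were Casc4 (distance 0.017), Klc1, Tmcc1, Aco1 and Uqcc (0.034). Casc4 was at 13.1 FPKM in steady-state wild type, 9.70 in the transgenic library, 10.1 in transplanted wild type and 10.6 in the one labelled knockout. Closest to the mean of the pre-B differentiation factors were Smcr7 (0.014), Wiz, Tab1, Dnajc14 and Lrp10 (0.027). Smcr7 was at 9.43, 7.79, 9.02 and 8.95 FPKM, lowest in the transgenic library.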

How the data were processed

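Poly(A) RNA of 4 libraries was measured. The kits were a miRNeasy kit for RNA and the stranded mRNA TruSeq kit for libraries, per the labels' protocols. The submitters' processing notes name the build mm10, Cufflinks 2.2.1, SAMtools 0.1.19, Bowtie2 2.2.3 and TopHat2 2.0.13, whose roles, annotation and filters were not given in the sources used here. What the authors deposited is read as FPKM from the range of the values and from Cufflinks, since the headers name no unit, and whether libraries were scaled to each other is not stated. Gene models came from GENCODE M21 (GRCm38).

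Reads were estimated from 1-read steps in 949 low values of genes with 1 annotated transcript, at a length of the transcript minus 210 nt; 31.5% lay within 1% of a common step, and 63.9% to 67.5% of values per library up to 20 reads lay within 0.1 of a whole read. For the factors the median coding transcript length was used, so intervals are approximate. PCR reads are not independent molecules. Differences used log2(FPKM + 1), which understates low genes, among genes that reached 1 FPKM in at least 1 of the 2 libraries; calls are 20% lower or 25% higher, with no test. Scripts ran in Python 3.11.15 with scipy 1.17.1 and were tested on simulated reads. The factors, their subgroups, the gene lists and the thresholds were chosen with earlier results of these data known. Named genes are the 9 factors, Stap2 and the 5 genes closest to each subgroup. From each list come up to 3 genes of largest difference that reached 5 FPKM. Cd79a, Blnk, Mzb1, Cox6a2, Pacsin1, Il7r, H2-Aa, Ccnd3, Csf1r and the genes named as undetected were added after their values were seen. Of the listed symbols Ighd matched none, and Spi1, Mzb1 and Adgre1 matched through RefSeq synonyms. Alternatives were the pseudocount, the filter and 4 scalings; the filter at 50 FPKM was chosen after seeing the data.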

Additional observations from a re-analysis of the deposited data

How the results depend on the processing

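Directions of single factors held under every scaling and pseudocount tried for 9 of 9 in the transplantation comparison. In each genotype comparison they held for 8 of 9. The exceptions were Irf8 in the transgenic library (-0.14 to 0.01) and Pax5 in the library labelled knockout (-0.05 to 0.05). A filter cannot change the value of a single factor, so the filters do not bear on these directions. No paired analysis was possible because each group has 1 library. Rescaling to the same sum moved the median of all genes to -0.13 (transgenic), 0.06 (labelled knockout) and -0.12 (transplanted wild type). The factors' medians then were -0.53, 0.24 and -0.43 for specification and commitment and -0.28, 0.055 and -0.072 for differentiation, and genes called lower and higher numbered 1867 and 769, 891 and 1646, and 1769 and 982. In the library labelled knockout 3 factors were then called higher and 0 lower, against 0 and 1, and 0 were lower with the median of gene ratios or the upper quartile. Rescaling to the same sum also gave 117 genes at least 2-fold higher in that comparison. Placing Ikzf1 among the specification factors gave them medians of -0.36 (transgenic) and -0.27 (transplanted wild type). The other factors then had -0.23 (labelled knockout) and 0.27 (transplanted wild type). Gaps between the subgroups became 0.36 (labelled knockout) and -0.54 (transplanted wild type), against 0.18 and -0.36 with Ikzf1 among the differentiation factors. With a pseudocount of 0.1 FPKM genes at least 2-fold lower and higher numbered 159 and 275, 267 and 154, and 158 and 346 in the 3 comparisons. With the pseudocount of 1 FPKM used elsewhere they numbered 74 and 132, 127 and 72, and 68 and 181. Fewer genes enter at 5 FPKM, where 627 and 738 were called lower and higher in the transgenic library with 44 and 69 at 2-fold, 862 were called lower and 80 were 2-fold lower in the library labelled knockout, and 856 were called higher and 41 were 2-fold lower in transplanted wild type. At 50 FPKM, called lower and higher were 133 and 142, 198 and 187, and 158 and 218, and 2-fold 20 and 26, 35 and 21, and 17 and 35. The medians of 2 lists changed sign with the genes that entered. Erythroid markers in the library labelled knockout went from 0.77, which was Hba-a1 alone, to -0.12 over all 8 genes with no filter. Genes lowered by IKAROS or AIOLOS went from 1.73 in transplanted wild type, with 8 of 9 higher, to -0.33 at 50 FPKM. That value is Ccnd3 alone, at 208 FPKM in steady-state and 166 in transplanted wild type, the only gene of the list to reach 50 FPKM. Depth is no limit for the factors, each with at least 1352 reads, but the lack of replicates is.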
